A study of Mus musculus with 14 samples.

Results

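The genes described here are the interleukin-6 (IL-6) family cytokines, their receptors and their feedback inhibitor in cultured mouse astrocytes that lack connexin43 (Cx43, the gap junction protein encoded by Gja1) or received a small interfering RNA (siRNA) that targets it. The members were chosen by symbol: every probe whose gene symbol in the array's annotation is Il6, Il11, Lif, Cntf, Clcf1, Il6ra, Il6st, Il11ra1, Lifr or Socs3. Of these 10 symbols, 8 genes had a probe, with 9 probes in all (Socs3 had 2), out of 13661 genes and 33600 probes on the array. Cntf and Il11ra1 were matched to no probe, and the probe of Lif held a value in 1 sample. Of the 9 probes, 7 had at least 2 values in every group and entered the tests: Il6, Il11, Clcf1, Il6ra, Il6st, Lifr and 1 Socs3 probe. Members with missing values are counted only where they were measured, and the 7 tested probes do not stand for all 10 members.

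The study compared 3 groups of primary cortical astrocyte cultures from newborn mice whose brains were taken within an hour of birth: untreated wild type, Cx43 null, and wild-type astrocytes transfected with 20 ug of a Cx43 siRNA construct. Each culture came from a single littermate's brain and was used after 1 passage, and the protocol text speaks of whole brain where the titles say cortical. The null strain and allele were not given, and no sample was labelled as a mock or control siRNA transfection, so a response to transfection and a response to loss of Cx43 cannot be told apart. The design text gives 36 h of siRNA, the protein protocol gives 48 h, and the design text reports Cx43 protein lower by at least 70% and its mRNA lower by 3.24-fold. Spotted oligonucleotide arrays were read for 6 wild-type, 4 null and 4 siRNA samples, each labelled with Cy3 or Cy5. The samples used here were wild-type replicates 3, 4 and 6 and all 4 replicates of the other groups, 11 in all. The design text gives 4 independent cultures per group, but no label ties a sample to a culture or animal. Every p-value below therefore reflects sample-to-sample spread that could be technical in part or whole.

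IL-6 family cytokines signal through receptor complexes that share the chain gp130, encoded by Il6st. IL-6 and IL-11 first bind their own receptor chains, IL-6R and IL-11RA. Leukemia inhibitory factor (Lif) and cardiotrophin-like cytokine factor 1 (Clcf1) signal through complexes that hold both gp130 and the LIF receptor. The complexes activate JAK kinases and the transcription factor STAT3, which induces Socs3, an inhibitor that binds gp130 and ends the signal. In the brain, astrocytes are a source of IL-6 during inflammation and respond to family ligands by becoming reactive.

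The Il6 promoter is shown because Il6 had the largest difference among the tested members. It is the 250 bases before the gene's start at chr5:30012864-30013113, plus strand, from RefSeq on the GRCm38.p6 assembly, and the gene itself spans chr5:30013114-30019975. Capitals mark matches to letter patterns of NF-kB (GGG and CC with 5 bases between), AP-1 (TGANTCA) and C/EBP (TTNNGNAA), searched on both strands.

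Il6: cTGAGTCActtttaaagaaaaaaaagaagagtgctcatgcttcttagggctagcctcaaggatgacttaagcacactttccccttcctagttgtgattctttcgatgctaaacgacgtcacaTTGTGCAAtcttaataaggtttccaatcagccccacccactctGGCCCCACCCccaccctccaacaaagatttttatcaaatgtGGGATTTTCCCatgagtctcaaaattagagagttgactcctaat

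The capitals nearest the gene hold overlapping NF-kB pattern matches on both strands. GGGATTTTCC fits the pattern as printed, and GGATTTTCCC fits it when its other strand is read. The C/EBP match TTGTGCAA lies 128 to 121 bases before the start, and the AP-1 match TGAGTCA lies 249 to 243 bases before it. The patterns are short, and matches are a description of letters, not of binding. The NF-kB pattern was in 45.8% of all 32851 promoters of the table, C/EBP in 36.8% and AP-1 in 6.75%. Among 12 promoters of 9 member genes, 7 held the NF-kB pattern, 2 the C/EBP pattern and 4 the AP-1 pattern. Clcf1 was not in that table.

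Socs3, the feedback inhibitor, is shown for its STAT pattern (TTCNNNGAA, capitals), with 30 bases at chr11:117969501-117969530, minus strand, on the same assembly. They precede the start that the promoter table lists, which lies inside the gene's full span of chr11:117966079-117970336, so they may fall within a longer transcript. Of the 12 member promoters, only this one held that pattern, which 7.02% of all promoters held. The cyclic AMP response element TGACGTCA was in 1.55% of all promoters and in 0 of the 12, and a STAT pattern with 1 more base between its arms (TTC and GAA with 4 bases between) was in 5.85% and 0 of 12.

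Socs3: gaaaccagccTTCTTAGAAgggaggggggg

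The deposited values are log2 values centred at 0 in each sample. A value below 0 lies below the median of the probes that held a value in that sample, called the array median here. It is not a level per gene length. Between 17849 and 26826 of the 33600 probes had a value in an analysed sample, so the probes behind that median differ between samples. Each analysed sample correlated at 0.894 to 0.948 with the mean of the others. Consecutive replicates, which carry opposite dyes and may share an array, correlated at 0.927 to 0.991. Replicates 1 and 2 stood apart from replicates 3 and above within the null and siRNA groups, and the wild type had analysed samples only among the latter. The linear model therefore carried terms for group, replicate set (1 and 2 against 3 and above) and dye. A probe was called at a Benjamini-Hochberg adjusted p under 0.05 over all tested probes in limma.

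Gja1, the gene targeted by both perturbations, had log2 values of 6.08, 7.53 and 4.82 in wild-type replicates 3, 4 and 6. The null replicates 1 to 4 had -1.17, -1.06, 2.82 and 3.03, and the siRNA replicates 1 to 4 had 1.93, 2.14, 5.47 and 5.70. All null values lay below all wild-type values, while siRNA replicates 3 and 4 lay inside the wild-type range, each below the wild-type sample of its own number. In limma, the null samples fell by 3.31 ± 0.58 (SE; 9.92-fold) below the wild type, with an adjusted p of 0.0401. Leaving out each sample in turn gave -4.0 to -2.65, and the call was kept only without wild-type replicate 6, null replicate 1 or siRNA replicate 2. In the other 8 such fits the adjusted p was up to 0.224. It was also lost with consecutive replicates as a random block (0.298). The siRNA samples differed from the wild type by -0.41 ± 0.58, adjusted p = 0.732, with a 95% interval of -1.67 to 0.85. With the replicate number as a block the difference was -1.10 ± 0.44, adjusted p = 0.139. No other sample has the number 6, so wild-type replicate 6 adds nothing to that blocked value. The reported 3.24-fold lower mRNA is 1.70 on the log2 scale, at the edge of the first interval and within 2 SE of the blocked value. Neither fit called Gja1 lower in the samples labelled siRNA, and every direction given below for them rests on their label. Whether the probe lies inside the deleted sequence is not known.

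Of the family's ligands, Il6 and Clcf1 rose in the samples labelled siRNA relative to the wild type. Il6 was 18.7-fold higher and Clcf1 was 3.65-fold higher, while Il11 was not called. These were the 2 of 7 tested member probes that rose, and 0 fell, where 5.42% of all 20352 tested probes rose and 1.96% fell. With consecutive replicates as a random block the count was 1, Il6, since Clcf1 had a limma adjusted p of 0.228. The median member change was 1.18 on the log2 scale, against 0.13 over all tested probes.

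Il6, the cytokine that names the family, had log2 values of -2.54, -3.60 and -2.29 in wild-type replicates 3, 4 and 6. Null replicates 1 and 2 had -2.92 and -2.87, and null replicates 3 and 4 had no value. The 4 siRNA replicates had 1.29, 1.29, 1.60 and 1.30. Every siRNA value was above 1 log2 unit over the array median and every other value was below -2, so the siRNA group overlapped neither of the others. The wild type averaged -2.81 ± 0.70 (SD, n = 3), the null group -2.90 ± 0.037 (SD, n = 2) and the siRNA group 1.37 ± 0.15 (SD, n = 4). The limma difference of siRNA from wild type was 4.23 ± 0.49 (SE), adjusted p = 0.00165, with a 95% interval of 3.14 to 5.31. Within replicates 3 and above, where both groups have samples, the difference of means was 4.26. With consecutive replicates as a random block it was 4.13, adjusted p = 0.019 in limma. Leaving out each sample in turn gave 3.86 to 4.52, with limma adjusted p between 0.000973 and 0.0297.

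**Figure D1:**
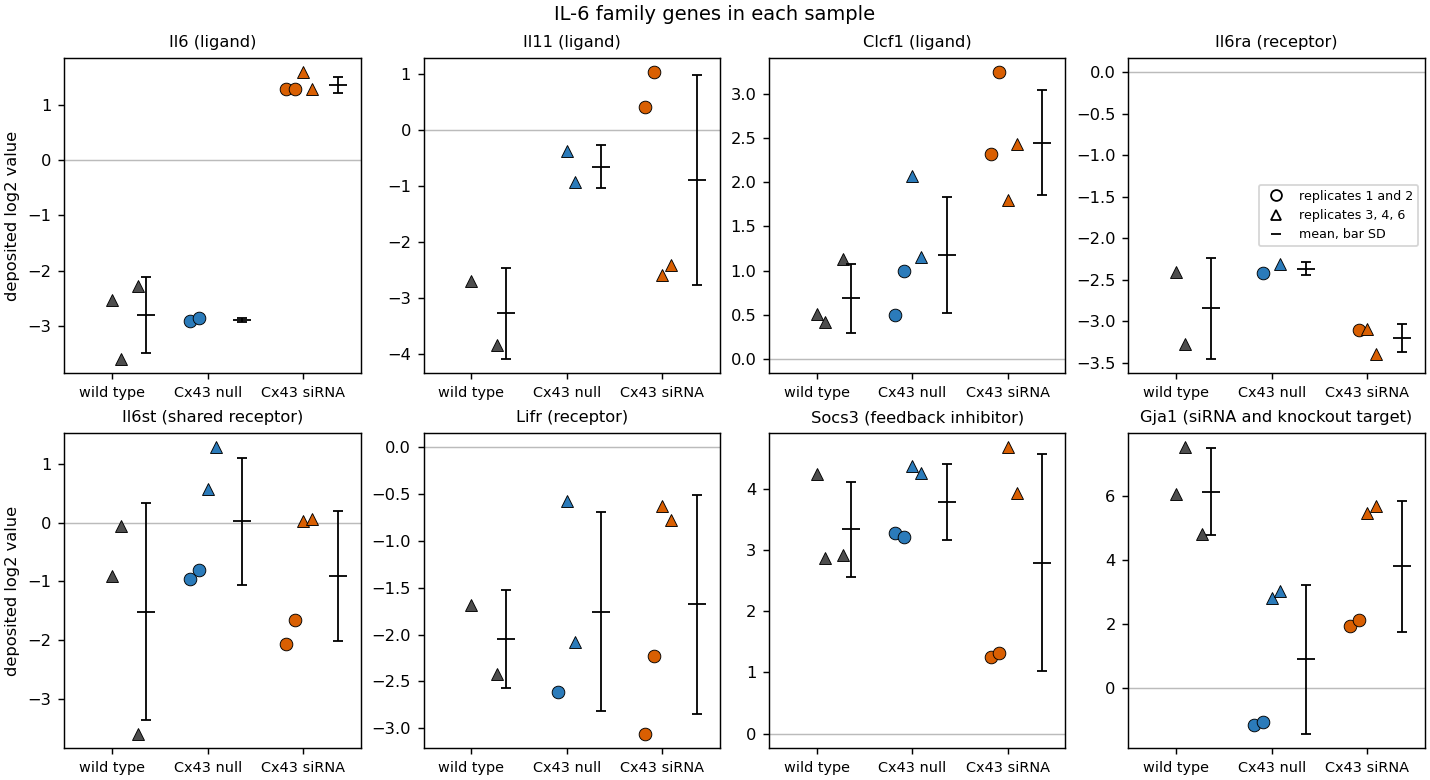
Deposited log2 value (vertical axis) of each tested IL-6 family gene and of Gja1 in every analysed sample, by group; circles are replicates 1 and 2, triangles replicates 3 and above, and the bar beside each group is its mean with 1 SD. Il6 sits between 1.29 and 1.60 in the 4 siRNA samples and between -3.60 and -2.29 elsewhere, while Socs3 and Gja1 in the siRNA group separate by replicate set.

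The 3 wild-type columns not used above bear on Il6 as follows. Taken as deposited, wild-type replicates 1, 2 and 5 correlated at 0.37, 0.38 and -0.0201 with the mean of the analysed samples. A fit of all 14 columns as deposited gave an Il6 difference of 1.46 between siRNA and wild type, limma adjusted p = 0.335, which is not a call. In replicates 1 and 2, runs of probes matched the other samples better when moved by 1 grid row on the array: of 1302 block columns, 1254 were placed, 812 of them 1 row on and 394 unmoved. At its placed row, where its block column correlated at 0.803 against 0.325 for the next best row with Il6 itself left out, Il6 had values of -2.15 and -1.91 in wild-type replicates 1 and 2. Both lie near the other wild-type values. The fit with these realigned columns, an alternative chosen after seeing the data, gave 3.82, limma adjusted p = 0.000411.

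Clcf1, a ligand that signals through gp130 and the LIF receptor, had log2 values of 0.51, 0.41 and 1.13 in the wild-type samples. The null replicates had 0.50, 0.99, 2.07 and 1.15, and the siRNA replicates had 2.32, 3.25, 1.80 and 2.44. The siRNA group lay above the whole wild-type group, with means of 2.45 ± 0.60 (SD, n = 4) and 0.68 ± 0.39 (SD, n = 3), and it overlapped the null group through null replicate 3. The limma difference of siRNA from wild type was 1.87 ± 0.51 (SE), adjusted p = 0.045, close to the threshold. It was kept in 2 of 11 fits that left out a sample, those without wild-type replicate 6 and without null replicate 3. In the other 9 the difference was 1.66 to 2.23 with limma adjusted p up to 0.162, and with the random block the adjusted p was 0.228.

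Il11, which signals through IL-11RA and gp130, had values of -2.70 and -3.85 in wild-type replicates 3 and 6 and none in replicate 4. Null replicates 3 and 4 had -0.38 and -0.93 and the other null replicates had none, while the siRNA replicates had 0.41, 1.03, -2.60 and -2.42. The siRNA group split by replicate set, with replicates 1 and 2 above and replicates 3 and 4 below the null values. The siRNA difference from wild type was 0.77 ± 0.56, limma adjusted p = 0.461. Lif, the leukemia inhibitory factor, had a single value, -2.23 in null replicate 4, and no difference could be computed.

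Among the receptors, none was called between siRNA and wild type. Il6ra, the IL-6 binding chain, had -2.41 and -3.27 in wild-type replicates 3 and 4, -2.42 and -2.31 in null replicates 2 and 4, and -3.11, -3.09 and -3.39 in siRNA replicates 2, 3 and 4. All 7 values lay below -2 and the wild-type range spanned most of the others. The siRNA difference from wild type was -0.33 ± 0.49, limma adjusted p = 0.746, with an interval of -1.45 to 0.78.

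Il6st, encoding the shared chain gp130, had -0.90, -0.044 and -3.60 in the wild type. The null replicates had -0.95, -0.81, 0.58 and 1.29, and the siRNA replicates had -2.07, -1.65, 0.041 and 0.062. Replicates 1 and 2 were lower than replicates 3 and 4 in both the null and the siRNA group, and wild-type replicate 6 was the lowest of all 11. The siRNA difference from wild type was 1.54 ± 0.73, limma adjusted p = 0.229, with an interval of -0.052 to 3.14 that leaves a wide range of sizes.

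Lifr, the receptor chain used by Lif and Clcf1, had -1.68 and -2.42 in wild-type replicates 3 and 6. Null replicates 2, 3 and 4 had -2.62, -0.57 and -2.08, and the siRNA replicates had -3.06, -2.23, -0.63 and -0.78. The 3 groups overlapped. The siRNA difference from wild type was 1.18 ± 0.57, limma adjusted p = 0.243.

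Socs3, the STAT3-induced inhibitor of gp130 signalling, had 4.23, 2.86 and 2.91 in the wild type at its tested probe. The null replicates had 3.28, 3.21, 4.37 and 4.26, and the siRNA replicates had 1.25, 1.31, 4.67 and 3.93. The siRNA group thus held both the lowest and the highest values, split by replicate set. The siRNA difference from wild type was 0.40 ± 0.52, limma adjusted p = 0.714, with an interval of -0.74 to 1.53. The difference was 0.97 within replicates 3 and above and -0.63 without the replicate set term, so its direction is not settled. The other Socs3 probe had values of -1.33 in wild-type replicate 3, -1.68 and -2.69 in null replicates 3 and 4, and -1.57 and -2.46 in siRNA replicates 3 and 4, and was not tested.

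**Figure D2:**
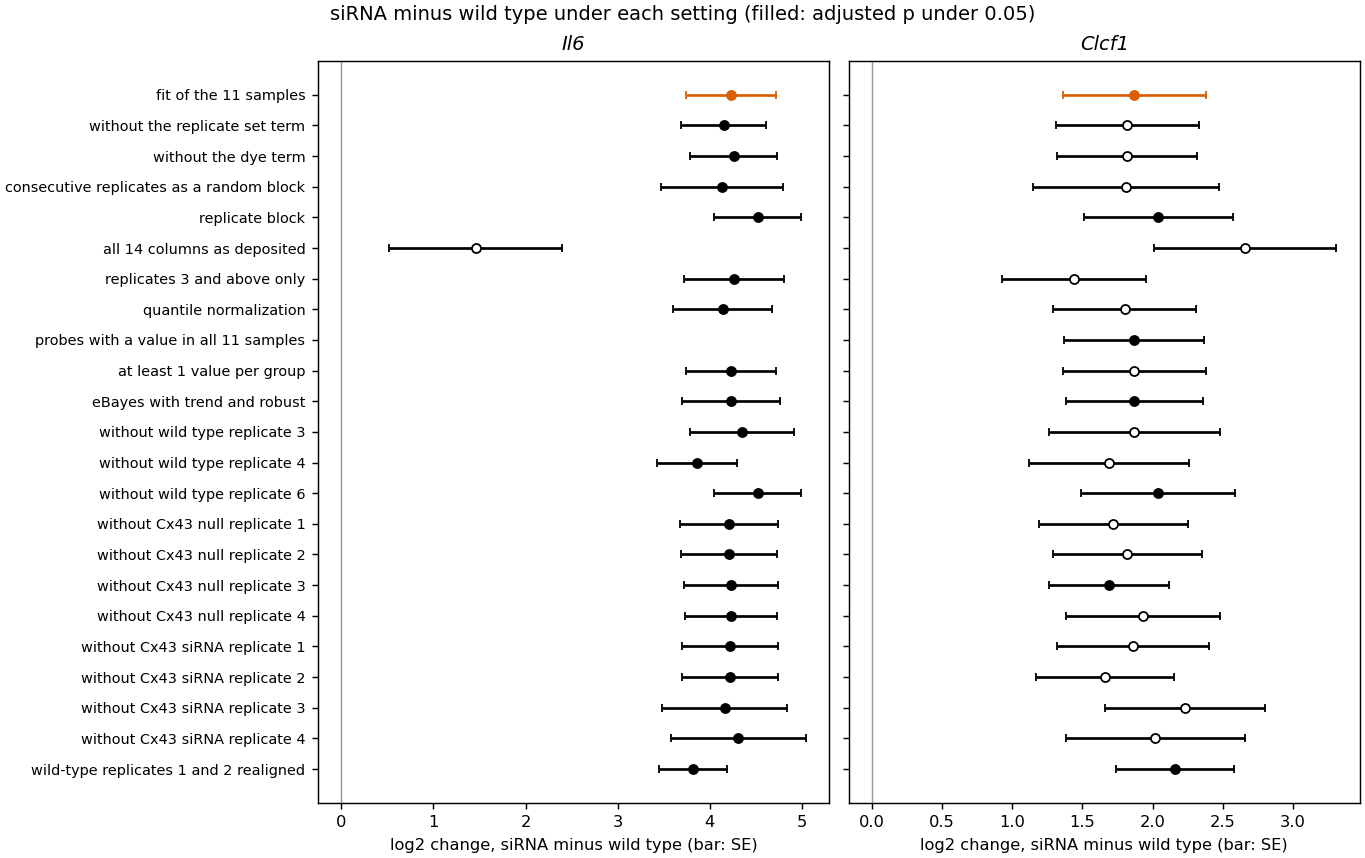
Log2 difference of siRNA from wild type (horizontal axis; bars are 1 SE) for Il6 and Clcf1 under the reported fit (orange, top row) and each alternative; filled points passed an adjusted p of 0.05 and a setting with no point gave no value. Il6 is filled in every fit except that of all 14 columns as deposited, at 1.46, whereas Clcf1 moves in and out of the call.

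Between null and wild type, no member was called. The counts were 0 of 7 higher and 0 of 7 lower, where 0.471% of all 20369 tested probes rose and 0.118% fell, so the background leaves little room for a call among 7 probes. All 7 differences were above 0, and their median was 0.89 against 0.27 over all tested probes, itself above 0. The Il6 difference was only 0.04 and fell below 0 in several alternatives, such as -0.22 with quantile normalization and -0.62 with the realigned wild-type columns. At an unadjusted limma p under 0.05 with at least a 1.5-fold change, 3 of 7 were higher, where 14.2% of all tested probes were.

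For Il6 the null difference from wild type was 0.04 ± 0.72, limma adjusted p = 0.986. Null values exist only in replicates 1 and 2 and wild-type values only in 3 and above, so this difference was reached through the siRNA samples, and its 95% interval of -1.56 to 1.64 does not show that the groups are alike. Il11 was higher by 2.62 ± 0.56 in the null samples, an interval of 1.37 to 3.87, at a limma adjusted p of 0.0653. That estimate rests on 2 wild-type and 2 null values, -2.70 and -3.85 against -0.38 and -0.93, which do not overlap. With quantile normalization of the 11 columns it was 2.46, limma adjusted p = 0.048. With the replicate number as a block it was 2.14. Wild-type replicate 6, alone in its number, adds nothing to that blocked value, which leaves only the wild-type value of -2.70.

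Il6st differed by 2.48 ± 0.73 between null and wild type, limma adjusted p = 0.114. It was 1.43 without wild-type replicate 6, whose value of -3.60 was the lowest. With the replicate number as a block it was also 1.43. No other sample has the number 6, so wild-type replicate 6 adds nothing to the blocked value, which is not a separate check. Socs3 differed by 1.39 ± 0.52, adjusted p = 0.2. The groups overlapped in both genes. Clcf1 (0.59 ± 0.51), Il6ra (0.64 ± 0.58) and Lifr (0.89 ± 0.57) had limma adjusted p of 0.613, 0.643 and 0.48.

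The null and siRNA samples differ both in the kind of Cx43 perturbation and in siRNA transfection, and these cannot be told apart here. Both groups have all 4 replicate numbers, though Il6 and Il11 each had a value in only 2 null samples. Il6 was lower in the null samples, the 1 of 7 tested members called, and none was higher. Of all 20375 tested probes, 2.26% were lower and 3.61% were higher in the null samples. The median member change was 0.94, against 0.11 over all tested probes. These comparisons share samples with the ones above and are not independent of them.

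Il6 fell by 4.19 ± 0.53 (SE; 18.2-fold) from siRNA to null samples, with a limma adjusted p of 0.00299. This estimate comes from replicates 1 and 2, where null values of -2.92 and -2.87 stood against siRNA values of 1.29 and 1.29. With the random block the adjusted p was 0.0342, and leaving out each sample gave differences of -4.34 to -4.03 with limma adjusted p of 0.00175 to 0.0198.

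Clcf1 differed by -1.28 ± 0.42 between null and siRNA samples, limma adjusted p = 0.0921. The difference was -2.05 within replicates 1 and 2 and -0.51 within replicates 3 and 4, and without null replicate 3 it was -1.74, adjusted p = 0.0411. Il11 differed by 1.85 ± 0.56, limma adjusted p = 0.0825, and with the replicate number as a block by the same 1.85 at an adjusted p of 0.0411. The Il11 difference comes from replicates 3 and 4 alone, since the other null replicates had no value.

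Socs3 differed by 0.99 ± 0.44, limma adjusted p = 0.183. Within replicates 1 and 2 the null samples were higher by 1.97, and within replicates 3 and 4 by 0.017. Il6ra (0.98 ± 0.49), Il6st (0.94 ± 0.61) and Lifr (-0.30 ± 0.47) had limma adjusted p of 0.261, 0.374 and 0.741. The null and siRNA values of Il6ra did not overlap, with 2 and 3 samples measured.

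**Figure D3:**
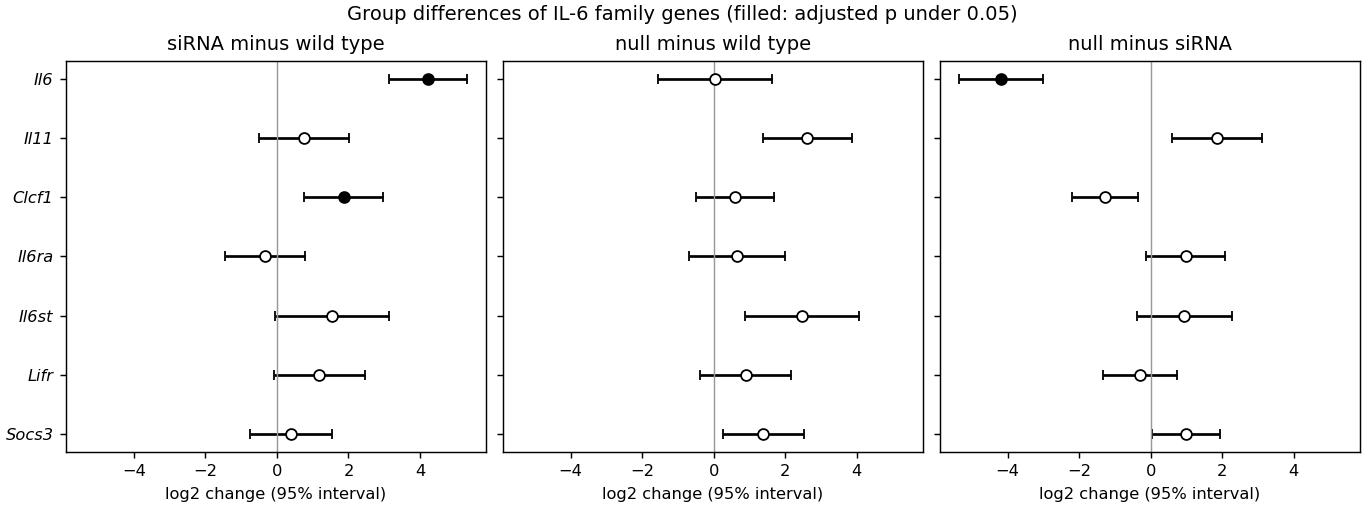
Log2 difference (horizontal axis) with its 95% interval for each tested IL-6 family gene in the 3 comparisons; filled points passed an adjusted p of 0.05. Il6 at 4.23 and Clcf1 at 1.87 are filled for siRNA minus wild type, none for null minus wild type, and Il6 at -4.19 for null minus siRNA.

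The rest of the pathway was read from 4 gene lists. Of the 11 other family ligands and receptors, 3 were tested and none was called between siRNA and wild type. Osmr, the oncostatin M receptor chain, differed by 0.27 ± 0.55 (limma adjusted p = 0.827). Ebi3, a subunit of IL-27, differed by -1.36 ± 0.39 from the wild type in the siRNA samples (limma adjusted p = 0.0566). It was higher in null than in siRNA samples by 1.35 ± 0.33 (limma adjusted p = 0.0344), the 1 of 3 called, where 3.61% of all tested probes were higher. With the random block the adjusted p of null against siRNA was 0.229. Leaving out null replicate 1, 2 or 4 or any siRNA replicate ended the call (7 fits, adjusted p up to 0.127).

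All 15 JAK-STAT transducers and inhibitors were tested. Socs1, an inhibitor of JAK kinases, rose in the siRNA samples by 2.78 ± 0.73 (limma adjusted p = 0.048), and the other 14 were not called. This 1 of 15 is near the 5.42% of all tested probes that rose. The median change of the list was 0.13, equal to that of all probes. Stat3 itself had values of 3.59 to 4.08 in the wild type and 3.64 to 4.45 in the siRNA samples, a difference of 0.13 ± 0.39 (limma adjusted p = 0.882). Socs1 had 0.93, -1.63 and -0.28 in the wild type, 0.11 and -3.24 in null replicates 3 and 4, and -0.15, 0.28, 3.26 and 2.14 in the siRNA samples, which overlapped the wild type. It was lower in null than in siRNA samples by -4.27 ± 0.80 (limma adjusted p = 0.0168), the 1 of 15 called, where 2.26% of all tested probes were lower. With the random block these p were 0.287 and 0.173, and the call against wild type was lost when wild-type replicate 3 or 4, null replicate 2, or siRNA replicate 3 or 4 was left out, with adjusted p of 0.0524 to 0.297. The call against null samples was lost without null replicate 4 or siRNA replicate 3 or 4, with adjusted p of 0.0745 to 0.143.

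Of 20 target genes of STAT3 and gp130, 14 were tested. Of all tested probes 5.42% rose in the siRNA samples relative to the wild type, and near that share, 1 of the 14 genes did. This was Lcn2, an iron-binding secreted protein of reactive astrocytes, with values of 0.75, 0.94 and 1.88 in the wild type, 3.58, 3.53, 1.69 and 2.46 in the null samples and 6.47, 6.88 and 6.20 in siRNA replicates 1 to 3. No siRNA value was near those of the other groups. The difference from wild type was 4.77 ± 0.54 (limma adjusted p = 0.00109; 0.00604 with the random block). A second Lcn2 probe differed by 3.30 ± 1.37 (limma adjusted p = 0.172) and was not called. The list's median change was 0.37. In null samples, Bcl6, a transcriptional repressor, rose by 3.24 ± 0.46 over the wild type (limma adjusted p = 0.0392). It was the 1 of 14 called, where 0.471% of all tested probes rose. Its values were -2.99, -2.91 and -3.48 in the wild type and -2.97, -0.20 and 0.36 in null replicates 1, 3 and 4. Null replicate 1 thus lay inside the wild-type range. No other sample of replicates 1 and 2 had a value, so the fitted difference comes from replicates 3 and above. The call was lost with the random block (0.265) and in the 6 fits that left out a replicate numbered 3 or 4 of any group (adjusted p up to 0.296). Lcn2 was lower in null than in siRNA samples by -3.59 ± 0.42 (limma adjusted p = 0.0012), but its second probe, at -0.48 ± 1.06 (0.821), did not show that difference. Timp1, a metalloproteinase inhibitor, was lower by -3.26 ± 0.86 (limma adjusted p = 0.0459), a call lost with the random block (0.225) and in the 9 fits that left out wild-type replicate 3 or any null or siRNA replicate (up to 0.192). Lcn2 and Timp1 were the 2 of 14 called between null and siRNA samples, where 2.26% of all tested probes were lower and 3.61% higher. With the random block the count was 1.

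Of 14 genes for inducers of Il6 and their receptors, 10 were tested and 3 rose in the siRNA samples, where 5.42% of all probes did: Tlr3, Ptgs2 and Il1rap. With the random block 1 of the 3 calls was kept, that of Tlr3. Tlr3, the receptor for double-stranded RNA, had 1.57, 0.51 and 0.48 in the wild type, -2.51, -2.62, 2.82 and 0.87 in the null samples and 0.12, 0.28, 5.20 and 4.64 in the siRNA samples. Its siRNA values split by replicate set: replicates 3 and 4 lay above and replicates 1 and 2 below the whole wild-type group. The fitted difference was 3.87 ± 0.45 (limma adjusted p = 0.000961; 0.0168 with the random block), but 1.59 without the replicate set term (0.764) and 2.28 with the realigned wild-type columns (0.0753). Ptgs2, the inducible cyclooxygenase, differed by 3.83 ± 0.64 (limma adjusted p = 0.00596), with siRNA values of 2.51 to 3.43 above every other sample. Il1rap, a co-receptor for IL-1, differed by 2.78 ± 0.52 (limma adjusted p = 0.00999). It had 0.11, -1.60 and -1.56 in the wild type and -0.48, -0.085, 2.37 and 2.08 in the siRNA samples. Its siRNA values also split by replicate set, with replicates 1 and 2 inside the wild-type range. With the random block Ptgs2 and Il1rap had adjusted p of 0.0854 and 0.0866, and both calls were lost without siRNA replicate 4, at 0.0564 and 0.101.

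Tumour necrosis factor (Tnf) differed between siRNA and wild type by -0.60 ± 0.43 (limma adjusted p = 0.45), and Il1a and Il1b were among the inducers that were not tested. Between null and siRNA samples 4 of the 10 tested genes of this list were lower and 1 was higher in the null samples. Of all tested probes 2.26% were lower and 3.61% higher. Tlr3 (-2.92), Ptgs2 (-3.86), Tlr2 (-1.98) and Il1rap (-1.67) were lower and the IL-17 receptor Il17ra (1.47, named after its value was seen) was higher, with limma adjusted p of 0.0015, 0.00266, 0.00871, 0.0444 and 0.0272. With the random block the call of Tlr3 was kept (0.0374), while those of Ptgs2 (0.0638), Tlr2 (0.089), Il1rap (0.289) and Il17ra (0.207) were not. Il1rap also lost its call when wild-type replicate 4, any null replicate or siRNA replicate 2, 3 or 4 was left out (adjusted p up to 0.198). Il17ra lost it when null replicate 1, 3 or 4 or siRNA replicate 1, 3 or 4 was left out (up to 0.139).

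**Figure D4:**
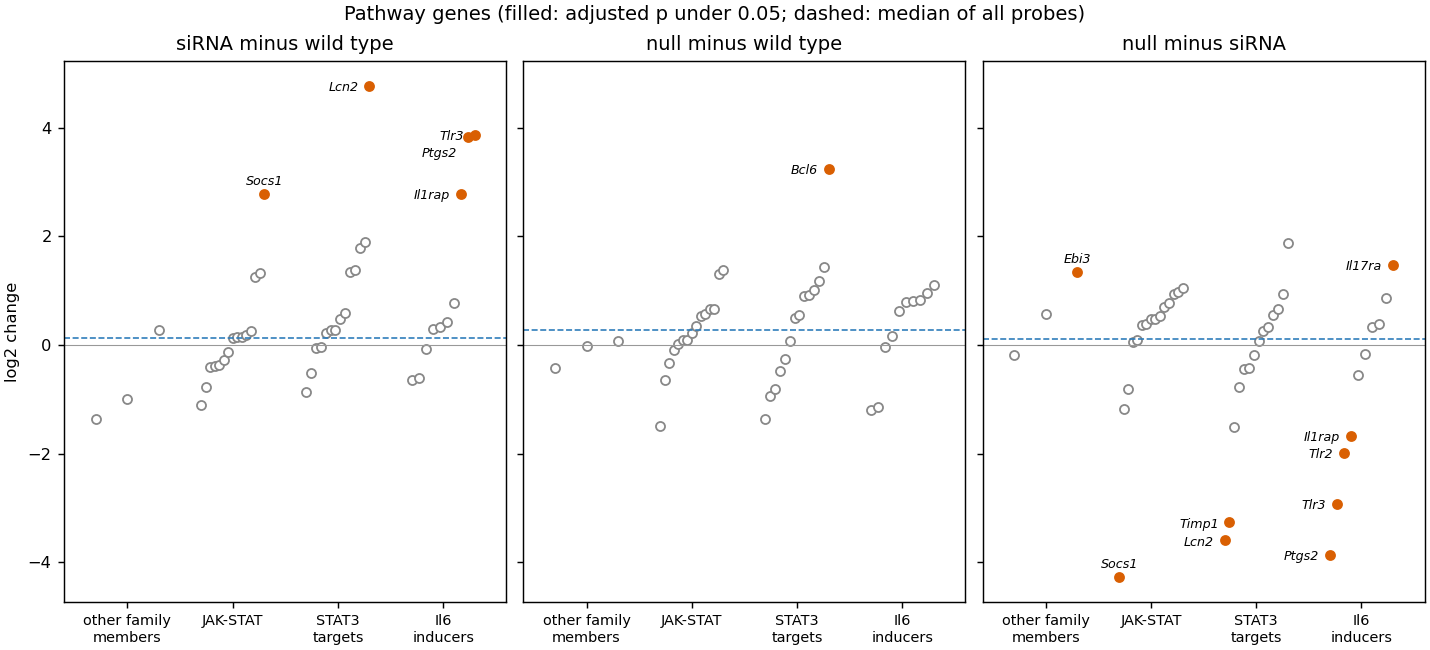
Log2 difference (vertical axis) of each tested gene of the 4 pathway lists in the 3 comparisons, ordered by value within a list; filled points passed an adjusted p of 0.05 and the dashed line is the median of all tested probes. Most genes lie within 2 log2 units of 0, and the called genes are Socs1, Lcn2, Tlr3, Ptgs2 and Il1rap for siRNA minus wild type, Bcl6 for null minus wild type, and 9 genes for null minus siRNA.

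The genes whose pattern was most like that of Il6 were found by Pearson correlation over the 9 samples that measured Il6, after centring each probe on its replicate set. Among 9305 other probes with 1 gene symbol and a value in all 11 samples, Mageb16 (r = 0.995), Cd274 (0.989), Lgals3 (0.987), Herc6 (0.986) and Slc25a25 (0.986) ranked first. Cd274, encoding the immune checkpoint ligand PD-L1, had values of -0.24 to 0.54 in the wild type and 2.13 to 3.06 in the siRNA samples. Lgals3, encoding galectin-3, had 2.63 to 4.17 and 5.35 to 6.37. For Socs3, over 11 samples, Slc16a1 (0.961), Dysf (0.946), Kif2a (0.939), Adgre1 (0.924) and Cpne1 (0.919) ranked first. These correlations share the groups and arrays of the samples and are descriptions. Lif, with 1 value, gave none.

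The astrocyte label was read against 12 markers, of which 5 were measured in all 11 samples, with a mean log2 value of 3.58 to 4.08 in the wild type, 3.38 to 4.06 in null and 1.72 to 3.65 in siRNA samples. The levels were mixed: Glul, Aqp4, Aldh1l1 and Sox9 were above the array median in all 11 samples and Fabp7 in its 10 and Slc1a3 in its 4 with a value. Slc1a2 (-2.74 to -0.063 in 10 samples) and Slc7a10 (-3.99 to -0.94 in 4) were below it, Aldoc and S100b ranged from -2.70 to 3.25 and from -2.99 to 0.68, and Gfap and Gjb6 had no matched probe. Microglial markers were also present: 11 markers measured in all samples averaged 3.43 to 3.97 in the wild type, 2.37 to 4.91 in null and 1.90 to 2.61 in siRNA samples. Of 12 tested, 6 fell in siRNA relative to wild type (median -1.93) and 5 were higher in null than in siRNA samples (median 1.43), against 1.96% and 3.61% of all probes, and with the random block each count was 1. Csf1r, Cd68 and Cx3cr1 had no matched probe. Between siRNA and wild type, 1 of 8 tested astrocyte markers rose (Aldh1l1) and 1 fell (Aldoc), 2 of 7 fibroblast and mural, 1 of 2 endothelial and 1 of 3 neuronal markers fell, and 0 of 7 oligodendrocyte markers were called. None of these calls was kept with the random block (limma adjusted p of 0.129 to 0.229). In bulk RNA, fewer cells of a type and less RNA per cell cannot be told apart, and the part of these shifts in the Il6 and Clcf1 differences was not tested.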

How the data were processed

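RNA from 14 cultured astrocyte samples was measured on spotted oligonucleotide arrays. The values deposited by the authors are on a log2 scale, 1 for each probe in each sample. No source used here gives the scanner, background correction, filter or normalization. Each column's median is 0. Missing values carry no reason, and signal over background is unknown and precision is limited by the number of arrays. Gene symbols come from the platform's annotation: 18179 probes have 1 symbol and 87 have several. The members and gene lists were chosen with earlier results of these data known.

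Samples were grouped by title. Wild-type replicates 1, 2 and 5 were left out as the rule for the members sets, and enter alternatives only. Differences came from limma 3.58.1 (lmFit, eBayes) in R 4.3.3 over 11 samples, with group, replicate set and dye as terms. The wild type was the reference, and the model was refitted with the siRNA group as reference for null minus siRNA. Probes with at least 2 values per group were tested, two-sided, and adjusted by Benjamini-Hochberg. Intervals are 95%. The scripts were tested on simulated data. Consecutive replicates as a random block had a consensus correlation of 0.467.

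Samples sharing a replicate number deviated together: over 14243 probes every such pair correlated above 0.1, from 0.121 to 0.647. Samples of 1 number also share their dye and replicate set, so these correlations do not show a shared culture or array. No label pairs the samples. Named genes were every member probe and Gja1; from each pathway list, up to 4 called genes by adjusted p, or up to 2 by unadjusted p where none was called; and the 5 probes most correlated with Il6 and Socs3. Osmr, Stat3 and Tnf were named after their values were seen. Promoters and coordinates are RefSeq's on GRCm38.p6, while no source used here gives the build behind the probes. Alternatives changed the replicate set, dye and block terms, the samples, the normalization, the filter and the eBayes settings. Versions of Python and pandas were 3.11.15 and 2.3.3.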

Additional observations from a re-analysis of the deposited data

Results flagged for a closer look

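Among 11 groups of 4 samples in which a member or Gja1 was measured, 1 held a sample far from the others. Il6 in siRNA replicate 3 had a log2 value of 1.60, while the other 3 siRNA replicates lay between 1.29 and 1.30, so its gap to the nearest was 0.967 of the group's range, above the 95% critical value of Dixon's test for 4 samples. Chance flags about 1 in 20 such groups, and 11 were searched. The test takes samples as independent, which consecutive replicates may not be, and siRNA replicates 1 and 2 both had 1.29. The gap was smaller than the wild-type Il6 SD of 0.70. Without siRNA replicate 3 the Il6 difference from wild type was 4.16 (limma adjusted p = 0.0194).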

How the results depend on the processing

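Signal over background is unknown here and 3 wild-type samples set the precision. The wild type has no analysed replicate 1 or 2, so differences from it lean on an additive replicate set term. Of the alternative values of single genes other than Gja1, 535 kept direction and side of the threshold, 84 lost the call, 7 gained it and 18 changed sign; the cause was not tested for any of them. The call of Il6 between siRNA and wild type held under every alternative that gave it a value except all 14 columns as deposited.

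IL-6 family members called between siRNA and wild type (2) were 1 without the replicate set term, without the dye term, with the random block, with replicates 3 and above only, with quantile normalization, with probes measured in all 11 samples (which drops Il6) and with at least 1 value per group, and 0 with all 14 columns. Leaving out each sample in turn gave 1 to 2. Between null and wild type (0) the count was 1 with quantile normalization and 3 at an unadjusted p with 1.5-fold change, and 0 with any 1 sample left out. Between null and siRNA (1) it was 2 with the replicate block (Il11), 0 with all 14 columns, with replicates 3 and above and with probes measured in all 11, 4 within replicates 1 and 2 and at the unadjusted p, and 1 to 2 with 1 sample left out. The replicate block changed no other member's call.

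All probes called were, for siRNA minus wild type (1502), 66 without the set term, 204 with the random block, 778 with all 14 columns, 648 with replicates 3 and above, 967 realigned, 4756 at the unadjusted p and 232 to 1591 with 1 sample left out. For null minus wild type (120) they were 0, 1, 1 (all 14), 378 with the replicate block, 308 with quantile normalization, 73 with probes in all 11, 69 with at least 1 value, 0 realigned, 3469 unadjusted and 1 to 245 with 1 sample left out. For null minus siRNA (1196) they were 75, 106, 160 (all 14), 2411 with the replicate block, 524 with replicates 3 and above, 672 realigned, 5309 within replicates 1 and 2, 1921 within 3 and 4, 5044 unadjusted and 259 to 1856 with 1 sample left out.

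Pathway genes called were, for siRNA minus wild type (5), 2 without the set term, with the random block and with replicates 3 and above, 3 with all 14 columns and 2 to 7 with 1 sample left out. For null minus wild type (1) they were 0 without the set term, with the random block, with all 14, with probes in all 11 and realigned, and 0 to 1 with 1 sample left out. For null minus siRNA (9) they were 2 without the set term, with the random block and with all 14, 1 with replicates 3 and above, 17 within replicates 1 and 2 and 4 to 10 with 1 sample left out.

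Gja1 between null and wild type lost its limma call without the set term (-5.21), with the random block (-3.09), all 14 columns (-3.31), replicates 3 and above (-3.22) and realigned columns (-3.31). Between null and siRNA it did so without the set term, with the random block and all 14 columns (-2.90 each) and with replicates 3 and above (-2.66). Without a sample it ranged from -4.0 to -2.65 and from -2.97 to -2.83, and siRNA minus wild type from -1.1 to 0.25, above 0 only without wild-type replicate 4.

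The other changes of sign, none of them called, were these. Il6 between null and wild type was -0.12 without the set term, -0.054 with the random block, -4.2 with all 14 columns, -0.22 with quantile normalization, -0.62 realigned and -0.32 to 0.33 with 1 sample left out (below 0 in 4 of 11 fits). Between siRNA and wild type, Il6ra was 0.14 with quantile normalization, Lifr -0.74 with all 14 columns, and Socs3 -0.63 without the set term and -0.36 realigned. Between null and wild type, Il6ra was -0.29 and Lifr -0.79 with all 14 columns, and Clcf1 ranged from -0.048 (without null replicate 3) to 0.77 with 1 sample left out. Between null and siRNA, Lifr was 0.012 without the set term and ranged from -0.67 to 0.081 (without null replicate 4). Member promoters with the wider STAT pattern were 0, and 2 when 50 bases after the start were added.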
